A study of Arabidopsis thaliana with 12 samples.

Results

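The core and linker histone genes of Arabidopsis thaliana were examined in leaf mRNA from 4 genotypes. They comprise 44 loci among the 32833 genes of the deposited expression table, chosen by name as the genes listed for histones H1, H2A, H2B, H3 and H4, and all 44 were found. By class they are 5 H3.1 genes, 3 H3.3 genes, the centromeric gene CENH3, 8 H4 genes, 4 canonical H2A genes, 2 H2A.X, 4 H2A.Z and 3 H2A.W genes, 11 H2B genes and 3 H1 genes. Classes follow that list. HTA4 stands with H2A.Z only by it, since the RefSeq annotation names HTA8, HTA9 and HTA11 as H2A.Z.

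The study asked how PNET2_A and PNET2_B, proteins of the nuclear envelope, relate to CRWN proteins of the plant nuclear lamina. The genotypes were wild type Col-0 (WT), the double knock-out of CRWN1 and CRWN4 (crwn1;4, here the double mutant), and the same double mutant carrying in addition a CRISPR mutation of PNET2_A (crwn1;4 pnet2_a) or of PNET2_B (crwn1;4 pnet2_b). The last pair are the triple mutants, called pnet2_a and pnet2_b where levels are given. All 3 mutant genotypes thus lacked CRWN1 and CRWN4, no plants received a treatment, and no genotype carried a PNET2 mutation with both CRWN genes intact. Each genotype had 3 libraries. The plants were 3 weeks old by the sample titles and 4 weeks old by the extraction protocol. About 50 mg of leaf went into a preparation, so fewer cells of a type and less RNA per cell cannot be told apart in these values. Whether each CRISPR genotype was 1 line, and whether replicates were separate plants, is not given in the sources used here. The p-values therefore rest on library-to-library spread alone, and part or all of it may be technical.

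Histones H2A, H2B, H3 and H4 form the octamer that DNA wraps around in the nucleosome, and H1 binds the linker DNA between nucleosomes. H3.1 is made mainly during DNA replication and is deposited behind the replication fork, whereas H3.3 is made throughout the cell cycle and is deposited at transcribed genes. Among the H2A variants, H2A.X is phosphorylated at DNA breaks, H2A.Z marks gene bodies and promoters of responsive genes, and the plant variant H2A.W marks heterochromatin. CENH3 replaces H3 at centromeres.

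The H3.1 and H3.3 genes encode almost the same protein, and their coding sequences show where they part. All 8 have a coding length of 411 bases in TAIR10.1. The encoded amino acid differed between every H3.1 gene and every H3.3 gene at 4 codons, which are 31, 41, 87 and 90 when codons are counted after the start codon. Codons 84 to 93 are given from the RefSeq TAIR10.1 genome because they hold a pair of these positions, with codons 87 and 90 in capitals. All 8 genes lie on the minus strand, and the sequences read 5′ to 3′ along the mRNA.
AT5G65360, chr5:26120228-26120257: ttccagagcAGCgccgtcGCAgcacttcag
AT1G09200, chr1:2971851-2971880: ttccagagcAGTgccgtcGCCgctcttcag
AT3G27360, chr3:10129588-10129617: tttcagagtAGTgcagtcGCAgctcttcaa
AT5G10400, chr5:3270607-3270636: ttccagagcAGTgccgtcGCAgctcttcag
AT5G10390, chr5:3269194-3269223: tttcagagcAGTgctgttGCTgctttacaa
AT4G40030, chr4:18555969-18555998: ttccagagcCATgctgtcTTAgctctccag
AT4G40040, chr4:18557668-18557697: ttccagagcCATgctgtgCTTgcactccag
AT5G10980, chr5:3472720-3472749: tttcagagtCACgcggtgTTAgctcttcaa

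The first 5 of these are the H3.1 genes and the last 3 the H3.3 genes. The remaining letters of the window vary within each class as well as between them. Over the whole coding sequence, the 10 pairs of H3.1 genes were 80.3% to 89.5% identical, the 3 pairs of H3.3 genes 78.6% to 88.8%, and the 15 pairs across classes 74% to 80.3%. The H3.1 genes have 1 exon each, and the H3.3 genes AT4G40030, AT4G40040 and AT5G10980 have 4, 5 and 3. Runs of bases shared with other transcripts were counted with genes that overlap the member's own locus left out. On that count, 32 of the 44 transcripts shared no run of 50 bases, and 40 no run of 100 bases. The highest share of such runs for any member was 28.5% at 50 bases and 12.1% at 100 bases. Another annotated gene overlaps 10 of the 44 loci, and bases shared through such an overlap are not in these shares. How the authors assigned fragments in the overlaps is not given in the sources used here.

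Plant histone promoters are known for an octamer, CGCGGATC, which was searched on both strands in the 250 bases before each annotated start. It stood in 10 of 44 member promoters, or 22.7%, against 37 of 27444 promoters of that length, those of all protein-coding genes, or 0.135%. By class it was present in 3 of 5 H3.1, 1 of 3 H3.3, 2 of 8 H4, 2 of 4 canonical H2A, 1 of 3 H2A.W and 1 of 3 H1 promoters, and in no promoter of CENH3, H2A.X, H2A.Z or H2B. The hexamer ACGTCA, on either strand, stood in 8 of 11 H2B promoters, or 72.7%, in 11 of 44 member promoters, or 25%, and in 7.69% of all promoters. Either of the E2F-like heptamer TTCCCGC and the heptamer TTGGCGC, on either strand, stood in 3 of 44, or 6.82%, against 1.92% of all promoters. The promoters of the most abundant pair of H3.1 genes are shown with the octamer in capitals. Both come from RefSeq TAIR10.1 and lie on the minus strand.
AT5G65360, chr5:26120582-26120831: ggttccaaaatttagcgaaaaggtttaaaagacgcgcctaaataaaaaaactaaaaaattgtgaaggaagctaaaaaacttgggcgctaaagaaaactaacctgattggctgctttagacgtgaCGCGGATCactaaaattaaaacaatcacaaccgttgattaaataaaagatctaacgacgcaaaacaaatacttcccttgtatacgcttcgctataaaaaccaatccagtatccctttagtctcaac
AT1G09200, chr1:2972335-2972584: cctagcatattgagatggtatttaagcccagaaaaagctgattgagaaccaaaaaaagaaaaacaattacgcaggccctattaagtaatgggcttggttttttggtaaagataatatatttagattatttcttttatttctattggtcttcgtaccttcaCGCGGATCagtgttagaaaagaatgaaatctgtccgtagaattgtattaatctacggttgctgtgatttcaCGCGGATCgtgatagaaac

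A match or its absence describes these letters only.

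Levels are given in FPKM, fragment numbers divided by gene length and by library depth, so the depth of each library is unknown. Tests were made with limma on log2(FPKM + 1) over 19110 genes that reached 1 FPKM in at least 3 of 12 libraries, with Benjamini-Hochberg adjustment over all of them and a threshold of 0.05. On this scale the change of low genes is understated. The smallest value above 0 in a library was 0.293 to 0.336 FPKM, so a gene listed at 0 may lie below that level and need not be absent. The 6 comparisons share libraries, so counts from different comparisons are not independent. CRWN1 was at 11.6, 13.5 and 12.2 FPKM in WT and at 1.46 to 1.996 in the 9 mutant libraries, and CRWN4 at 6.53, 8.43 and 7.13 in WT and 1.19 to 2.08 in the mutants. The pnet2 mutations were not checked here. Libraries of 1 genotype correlated at 0.984 to 0.989 and libraries of different genotypes at 0.924 to 0.984. Within WT, replicate 3 held the highest value for 36 of the 43 members above 0, and 33 after scaling to a common total. WT replicate 2 was the lowest of WT for 29 and double mutant replicate 1 the lowest of its genotype for 26. For pnet2_a, replicate 3 was the highest for 26 and replicate 1 the lowest for 24, and for pnet2_b, replicate 2 was the highest for 28 and replicate 3 the lowest for 25.

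Between the double mutant and WT few histone genes passed the test. Of the 42 members that passed the filter, 1 changed: HTA11, an H2A.Z gene, fell in the double mutant, while 2.41% of all tested genes rose and 0.591% fell, 3% in all. The log2 change was negative for 36 of the 42 and positive for 6, with a median of -0.13 beside 0.01 over all tested genes. Without WT replicate 3, which held the highest WT value for most members, 28 were negative and the median was -0.03. In the pnet2_a triple mutant against the double mutant, 3 members rose and 3 fell, where 22.9% of all tested genes rose and 9.2% fell. In the pnet2_b triple mutant, 16 rose and 2 fell, where 38.8% of all tested genes rose and 8.63% fell. As percentages, 14.3% of members passed with pnet2_a against 32.1% of all tested genes, and 42.9% against 47.5% with pnet2_b. The members' share with pnet2_b was thus near the background. The median change of all tested genes was 0.11 with pnet2_a and 0.23 with pnet2_b on the log2 scale, and the members' median was 0.03 and 0.18. Of the 16 rises with pnet2_b, 12 exceeded the 0.23 median of all genes and 4 did not (AT4G40040, HTA2, HTA9 and AT1G06760). By class, the median change with pnet2_b against the double mutant was 0.30 for H3.1, 0.21 for H3.3, 0.09 for H4, 0.19 for canonical H2A, 0.30 for H2A.X, 0.40 for H2A.Z, 0.03 for H2A.W, 0.15 for the 9 tested H2B genes and -0.03 for H1. Counting members whose libraries did not overlap, 1 was higher and 6 lower in the double mutant than in WT, where 11.8% and 7.99% of all tested genes were. Against the double mutant, 7 were higher and 5 lower with pnet2_a (32.7% and 14.1% of all), and 22 higher and 2 lower with pnet2_b (46.4% and 11.1%).

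The size of these counts depended on the scaling. With median-ratio scaling, which moved the median of all genes to 0.02 for pnet2_b and 0.01 for pnet2_a, 4 members rose and 5 fell with pnet2_b, where 18.3% and 18% of all tested genes did, and 1 rose and 5 fell with pnet2_a, where 15.5% and 14.5% did. Of the 18 members called with pnet2_b as deposited, 6 kept their call, 8 lost it, and 4 had a change of the opposite sign. With quantile scaling 4 rose and 4 fell with pnet2_b, where 16.9% and 19.8% of all did, and 6 of the 18 were kept; with pnet2_a 1 rose and 6 fell, where 14% and 16.1% did. With values rescaled to TPM, where 43 members passed the filter, 23 rose and 2 fell with pnet2_b, where 42.7% and 7.06% of all did, and all 18 were kept. The fall of HTA4 and AT2G28720 and the rise of HTA8 and HTA11 were called under all 3. Over all tested genes, rises made up 81.8% of the pnet2_b calls as deposited, 50.4% after median-ratio scaling and 46.1% after quantile scaling. For pnet2_a these shares were 71.3%, 51.7% and 46.3%. Without double mutant replicate 1 the pnet2_b count was 11 in place of 18, and without pnet2_b replicate 2 it was 12. In those fits 39.5% and 40.3% of all tested genes were called, in place of 47.5%. For pnet2_a the count of 6 became 3 without double mutant replicate 1, 3 without pnet2_a replicate 1 and 2 without pnet2_a replicate 3. There 24.8%, 26.6% and 25.1% of all tested genes were called, in place of 32.1%.

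**Figure D1:**
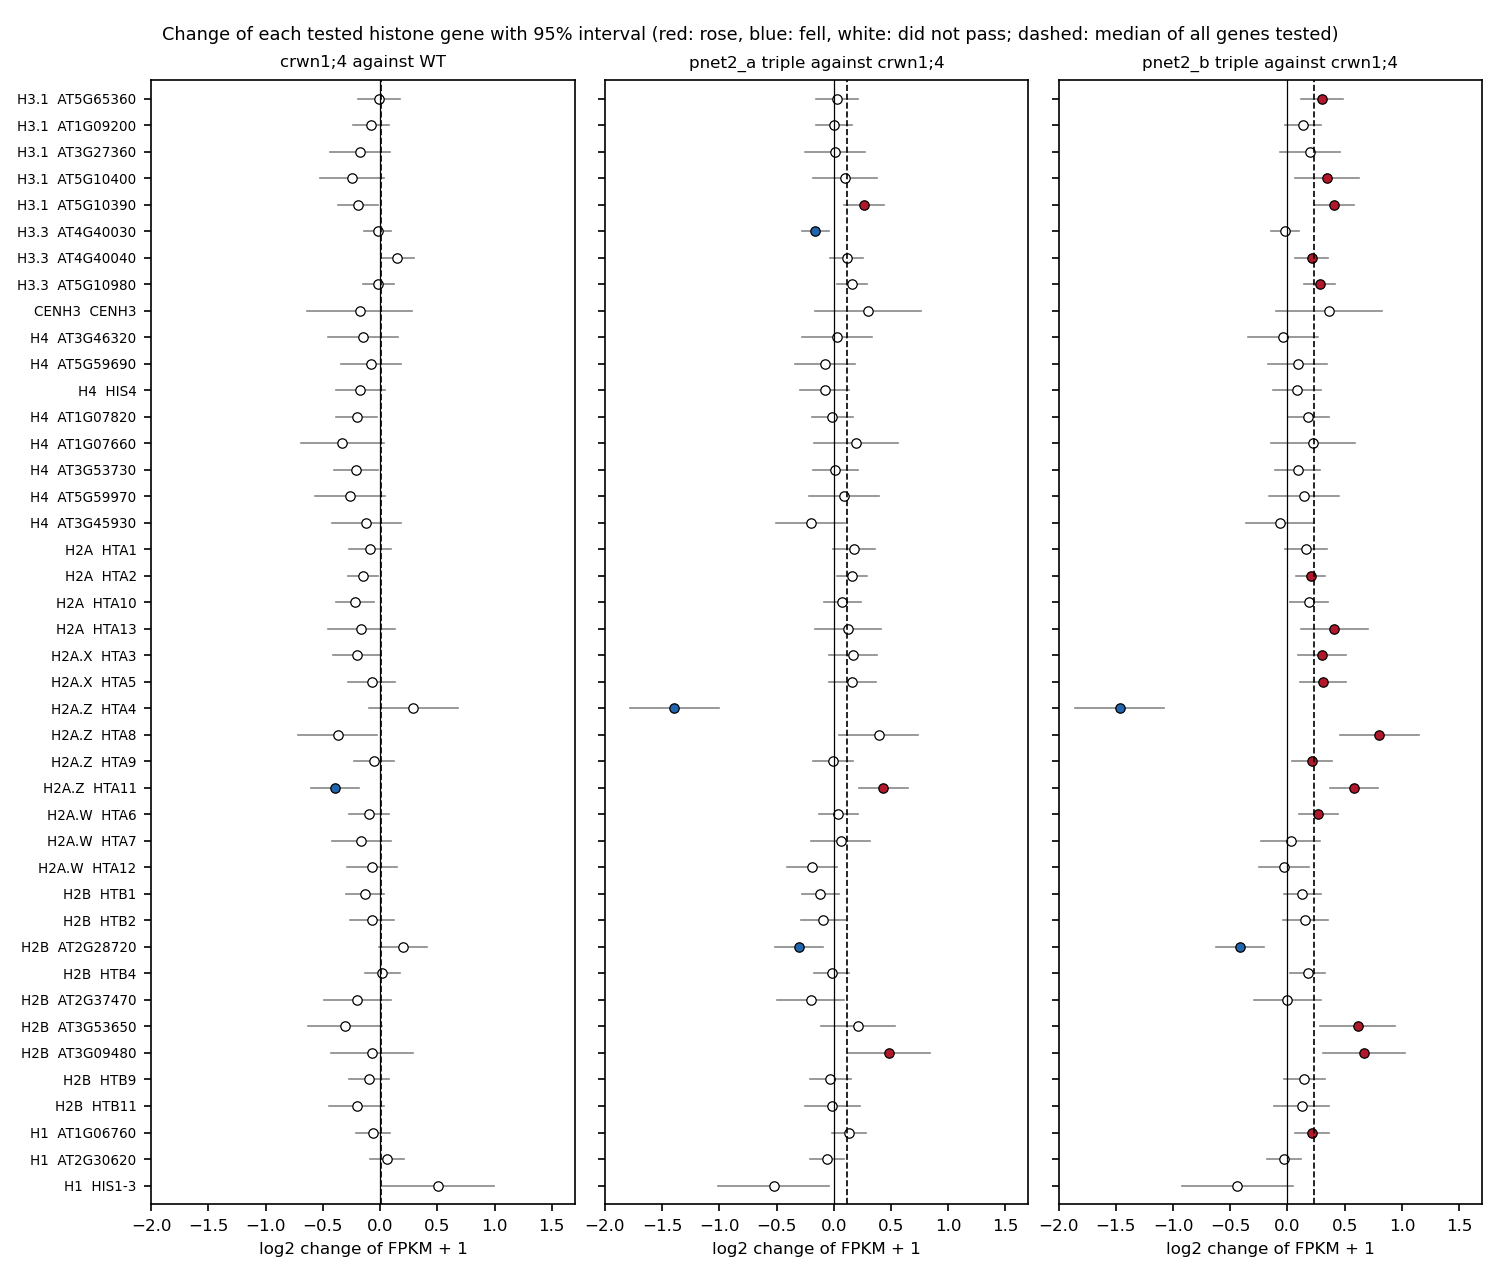
Log2 change in FPKM + 1 of the 42 tested histone genes, grouped by class, with 95% intervals from limma (n = 3 libraries per genotype). Red points rose and blue points fell at an adjusted p below 0.05, and white points did not pass. The dashed line is the median of all tested genes. With pnet2_b, 16 of 42 are red as deposited, where 38.8% of all tested genes rose. After median-ratio or quantile scaling 4 of 42 rose, where 18.3% and 16.9% of all did.

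**Figure D2:**
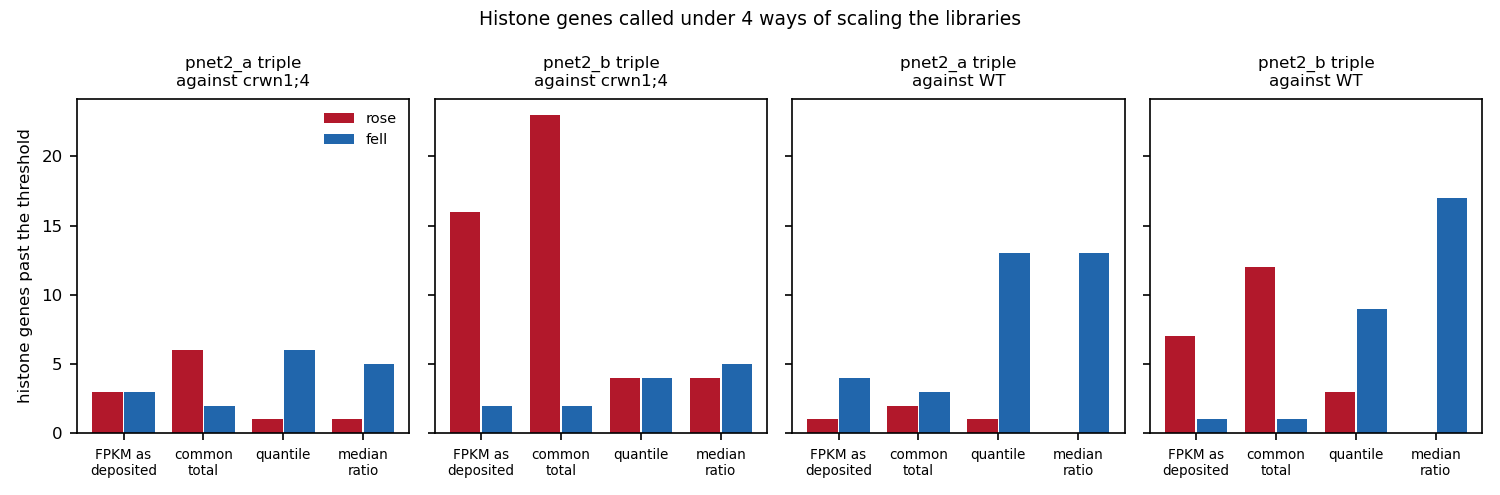
Number of the tested histone genes (42, or 43 in TPM) that rose or fell at an adjusted p below 0.05 in 4 comparisons, under the deposited FPKM, TPM, median-ratio and quantile scaling. For pnet2_b against the double mutant the rises number 16 as deposited, 23 in TPM, 4 after median-ratio scaling and 4 after quantile scaling. Of all tested genes, 38.8%, 42.7%, 18.3% and 16.9% rose in the same order.

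Of the 5 H3.1 genes, 3 rose with pnet2_b against the double mutant as deposited, but none did after median-ratio scaling and 1 after quantile scaling. Of all tested genes, 38.8%, 18.3% and 16.9% rose in the same order. AT5G65360, the most abundant H3.1 gene, was at 129.6, 114 and 151 FPKM for WT, 124, 133 and 133 for the double mutant, 126, 132 and 139 with pnet2_a and 157, 171 and 154 with pnet2_b. The 3 pnet2_b libraries lay above every other library, and the other genotypes overlapped. Its change against the double mutant was 0.30 (SE 0.0849, adjusted p = 0.00945), which is 0.07 above the median of all genes, and against WT 0.29 (adjusted p = 0.0106, but 0.0502 without WT replicate 2). After median-ratio scaling its change was 0.05 against the double mutant and 0.05 against WT, and neither passed.

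AT5G10390 was the H3.1 gene that passed with either mutation. Its levels were 38.3, 37.1 and 46.0 FPKM for WT, 33.4, 36.1 and 35.7 for the double mutant, 41.4, 40.9 and 44.7 with pnet2_a and 49.6, 45.5 and 45.5 with pnet2_b. All 6 triple mutant libraries were above the 3 double mutant libraries, and the WT libraries overlapped those of both triple mutants. The change against the double mutant was 0.26 with pnet2_a (SE 0.0811, adjusted p = 0.0224) and 0.41 with pnet2_b (SE 0.0811, adjusted p = 0.000997), or 0.15 and 0.18 above the median of all genes. The pnet2_a call was lost without double mutant replicate 1 (adjusted p = 0.0847) or pnet2_a replicate 3 (adjusted p = 0.0908), and after median-ratio (0.15, adjusted p = 0.17) or quantile scaling (0.16, adjusted p = 0.138). Against WT it rose by 0.21 with pnet2_b (adjusted p = 0.0432), with libraries that overlap. That call was lost in 9 of 12 fits with 1 library left out (adjusted p up to 0.157), the exceptions being WT replicate 3, double mutant replicate 1 and pnet2_a replicate 3, and after median-ratio scaling the change was -0.024.

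AT5G10400 lies next to AT5G10390 on chromosome 5 and was at 55.1, 58.7 and 79.5 FPKM for WT, 45.7, 55.0 and 60.9 for the double mutant, 51.1, 58.2 and 63.3 with pnet2_a and 72.9, 69.5 and 62.9 with pnet2_b. The pnet2_b libraries were above the double mutant libraries and within the range of WT. Its change of 0.35 against the double mutant (SE 0.131, adjusted p = 0.0421) was lost without double mutant replicate 1 (adjusted p = 0.186), double mutant replicate 2 (0.0665), pnet2_a replicate 2 (0.0535), or pnet2_b replicate 1 (0.122) or 2 (0.0964). The other H3.1 genes passed in no comparison as deposited. AT1G09200 was at 121, 108 and 129.8 FPKM for WT, 113, 111 and 114 for the double mutant, 111, 105 and 123 with pnet2_a and 128, 125 and 119.5 with pnet2_b. AT3G27360, the lowest of the class, was at 18.6, 21.5 and 25.5 FPKM for WT, 16.5, 19.7 and 21.4 for the double mutant, 18.8, 19.5 and 19.6 with pnet2_a and 22.3, 25.1 and 19.1 with pnet2_b. For both genes WT overlapped each mutant. The pnet2_b libraries of AT1G09200 were all above those of the double mutant, as for 46.4% of all tested genes, whereas those of AT3G27360 overlapped them.

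Of the 3 H3.3 genes, 1 fell with pnet2_a and 2 rose with pnet2_b against the double mutant as deposited, where 9.2% and 38.8% of all tested genes did. After median-ratio scaling none rose and 1 fell with pnet2_b, where 18.3% and 18% of all did. After quantile scaling 1 rose, where 16.9% of all did. AT4G40030 was at 166, 183 and 181 FPKM for WT, 172, 181 and 168 for the double mutant, 148, 161 and 157 with pnet2_a and 173, 174 and 168 with pnet2_b. The pnet2_a libraries were below all 9 others. The change was -0.16 against the double mutant (SE 0.0565, adjusted p = 0.0427) and -0.18 against WT (adjusted p = 0.0210). The first call was lost in 7 of 12 fits with 1 library left out, without double mutant replicate 1 (0.0842) or 2 (0.144), pnet2_a replicate 1 (0.155) or 3 (0.0815), or any pnet2_b library (0.0514 to 0.0558). The second was lost without WT replicate 2 (0.0653) or 3 (0.0613) or pnet2_a replicate 1 (0.0908). In TPM both were lost, at -0.13 (0.084) and -0.14 (0.0525).

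AT4G40040, the neighbouring H3.3 gene on chromosome 4, was at 160.2, 152 and 175 FPKM for WT, 172, 179.9 and 189 for the double mutant, 183, 209 and 195 with pnet2_a and 208, 217 and 202 with pnet2_b. Both triple mutants were above all WT libraries, and the pnet2_b libraries were also above all double mutant libraries. Against WT it rose by 0.27 with pnet2_a (SE 0.0667, adjusted p = 0.00632) and by 0.36 with pnet2_b (adjusted p = 0.000478), both called in 12 of 12 fits with 1 library left out. Both were lost after median-ratio scaling, at 0.16 (adjusted p = 0.0907) and 0.12 (adjusted p = 0.179). Against the double mutant the pnet2_b change was 0.21 (SE 0.0667, adjusted p = 0.0179), lost without double mutant replicate 1 (0.0726) or pnet2_b replicate 2 (0.0672), and it was -0.038 after median-ratio scaling.

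AT5G10980, the third H3.3 gene, was at 121, 107 and 126 FPKM for WT, 113, 119 and 117 for the double mutant, 133, 130.5 and 128 with pnet2_a and 144, 144 and 136 with pnet2_b. The pnet2_b libraries were above all others. It rose with pnet2_b by 0.28 against the double mutant (SE 0.062, adjusted p = 0.00213) and 0.27 against WT (adjusted p = 0.00288), and both calls held in 12 of 12 fits with 1 library left out. After median-ratio scaling the change was 0.03 against the double mutant and 0.02 against WT (adjusted p = 0.811 against WT), and neither passed.

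The balance of replication-coupled to replication-independent H3 mRNA was read from class sums. The 5 H3.1 genes summed to 378 ± 48.0 FPKM for WT, 351 ± 16.7 for the double mutant, 365 ± 22.1 with pnet2_a and 422 ± 18.6 with pnet2_b (SD, n = 3). The 3 H3.3 genes summed to 457 ± 21.9, 471 ± 11.1, 481 ± 18.7 and 522 ± 14.8 FPKM in the same order. H3.3 was above H3.1 in every library, with fewer genes.

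As a share of H3.1 plus H3.3 FPKM, which scaling a library by a factor leaves as it is, H3.1 made up 44.8%, 43.4% and 47.2% in WT, 42.0%, 42.5% and 43.5% in the double mutant, 42.9%, 41.6% and 44.8% with pnet2_a and 45.0%, 44.9% and 44.2% with pnet2_b. The pnet2_b libraries lay above the double mutant libraries and within the range of WT, and the pnet2_a libraries spanned those of the double mutant. The means were 45.2 ± 1.93%, 42.7 ± 0.736%, 43.1 ± 1.65% and 44.7 ± 0.427%, and they are given as a description with no test. Leaving out 1 library moved the WT mean between 44.1% and 46.0%.

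Within the H3.3 sum, the share of AT4G40030 was 37.1%, 41.3% and 37.6% in WT and 37.6%, 37.7% and 35.4% in the double mutant. It was 31.9%, 32.1% and 32.8% with pnet2_a and 32.9%, 32.5% and 33.1% with pnet2_b. All 6 triple mutant libraries were below the 6 WT and double mutant libraries. The share of AT4G40040 was 35.5 ± 0.977% in WT, 38.3 ± 1.29% in the double mutant, 40.6 ± 1.19% with pnet2_a and 40.0 ± 0.456% with pnet2_b, and that of AT5G10980 was 25.8 ± 1.46%, 24.7 ± 0.0617%, 27.1 ± 1.35% and 27.1 ± 0.259%.

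**Figure D3:**
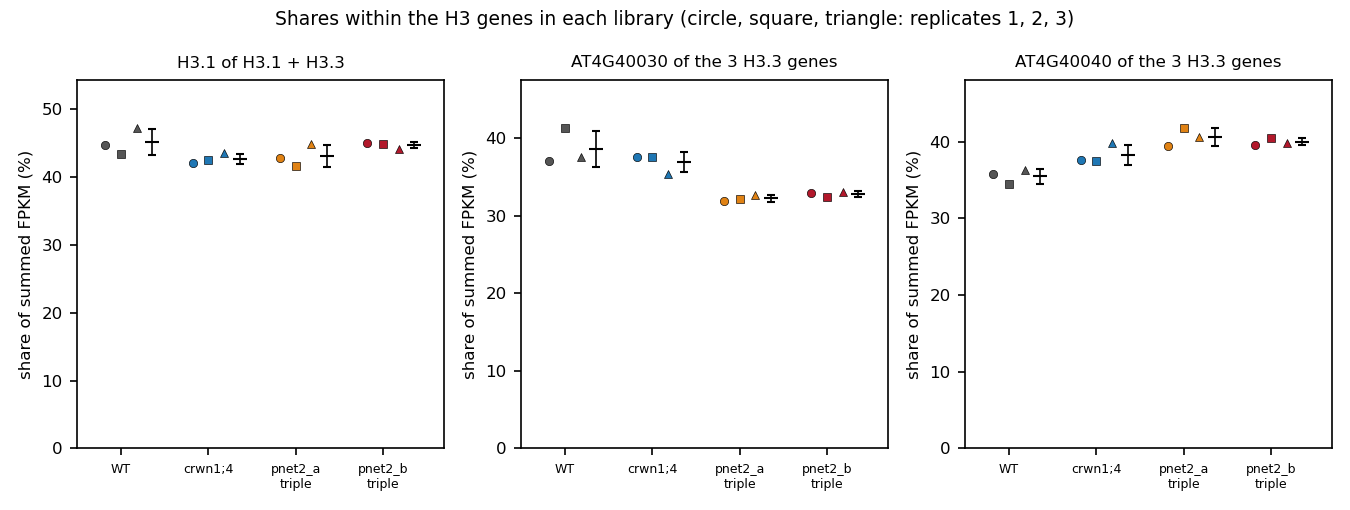
Share of H3.1 in the summed FPKM of H3.1 and H3.3, and shares of AT4G40030 and AT4G40040 in the summed FPKM of the 3 H3.3 genes, in percent for each library (circle, square and triangle for replicates 1 to 3; bar, mean ± SD). The H3.1 share lies between 41.6% and 47.2% in all 12 libraries, and the AT4G40030 share is 31.9% to 33.1% in the triple mutants and 35.4% to 41.3% in the other libraries.

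CENH3 was low, at 2.77, 2.19 and 4.23 FPKM for WT, 2.14, 3.67 and 1.95 for the double mutant, 3.63, 2.93 and 3.43 with pnet2_a and 2.92, 4.80 and 3.07 with pnet2_b. All genotypes overlapped, and it passed in no comparison. None of the 8 H4 genes passed in any comparison as deposited, although 1 rose with pnet2_b against the double mutant in TPM and, against WT, 4 fell with pnet2_a and 5 with pnet2_b after median-ratio scaling. The shares of all tested genes were 42.7% for that rise in TPM, and 16.3% and 18.9% for the falls after median-ratio scaling. At an unadjusted p below 0.05, limma had 2 H4 genes lower in the double mutant than in WT, 4 lower with pnet2_a than in WT, and 1 higher with pnet2_b in each comparison with the double mutant and with pnet2_a. Of all tested genes, 7.02%, 13.8%, 44.2% and 18.1% did so in these 4 comparisons, in this order. AT5G59690, the most abundant H4 gene, was at 159.8, 148 and 216 FPKM for WT, 141, 182 and 169 for the double mutant, 147, 156 and 159 with pnet2_a and 163, 191 and 166 with pnet2_b. WT replicate 3 was the highest of all 12 libraries, and the genotypes overlapped. AT1G07820 had the smallest adjusted p of the class against the double mutant, 0.085 for pnet2_b. It was at 45.7, 48.4 and 50.3 FPKM in the double mutant and at 50.8, 62.2 and 51.9 with pnet2_b. The H4 sum was 501 ± 77.9 FPKM for WT, 447 ± 35.4 for the double mutant, 436 ± 20.4 with pnet2_a and 475 ± 48.0 with pnet2_b, which overlap.

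Of the 4 canonical H2A genes, 2 rose with pnet2_b against the double mutant, HTA2 and HTA13, both only in deposited FPKM and TPM and not after median-ratio or quantile scaling. The shares of all tested genes that rose were 38.8%, 42.7%, 18.3% and 16.9% in these 4 settings. HTA2 was at 49.6, 50.1 and 54.8 FPKM for WT, 47.0, 45.8 and 46.4 for the double mutant, 51.7, 50.9 and 52.8 with pnet2_a and 56.3, 52.4 and 51.8 with pnet2_b. The double mutant libraries were the lowest, and the other genotypes overlapped. Its pnet2_b change was 0.20 (SE 0.0606, adjusted p = 0.0141, but 0.0646 without pnet2_b replicate 1), and after median-ratio scaling it was -0.044. HTA13 changed by 0.41 (SE 0.135, adjusted p = 0.0226), lost without double mutant replicate 1 (0.0956) or pnet2_b replicate 2 (0.0953). HTA10, the most abundant of the class, was at 117, 111 and 136 FPKM for WT, 97.5, 106 and 107 for the double mutant, 101, 113 and 114 with pnet2_a and 121, 118 and 114 with pnet2_b, and passed in no comparison.

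Both H2A.X genes rose with pnet2_b against the double mutant in deposited FPKM and in TPM, where 38.8% and 42.7% of all tested genes rose. Neither did after median-ratio or quantile scaling, where 18.3% and 16.9% of all rose. HTA3 was at 67.2, 54.9 and 75.5 FPKM for WT, 58.6, 52.9 and 58.8 for the double mutant, 61.2, 61.6 and 68.8 with pnet2_a and 65.9, 73.1 and 71.0 with pnet2_b. HTA5 was at 46.6, 55.7 and 59.1 FPKM for WT, 47.2, 52.0 and 53.7 for the double mutant, 56.5, 51.1 and 64.4 with pnet2_a and 65.2, 63.4 and 61.5 with pnet2_b. For both genes the pnet2_b libraries were above the double mutant libraries. For HTA3 they lay within the range of WT, and for HTA5 above it. The changes were 0.30 (SE 0.0975, adjusted p = 0.0214) and 0.31 (SE 0.0951, adjusted p = 0.0153), or 0.07 and 0.08 above the median of all genes. The HTA3 call was lost without double mutant replicate 2 (0.0811) or pnet2_b replicate 2 (0.0719) or 3 (0.0588), and the HTA5 call without double mutant replicate 1 (0.0675).

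In the H2A.Z list, genes moved in both directions. With pnet2_b against the double mutant, 3 of its 4 genes rose and 1 fell as deposited, where 38.8% and 8.63% of all tested genes did. After median-ratio or quantile scaling 2 rose and 1 fell. Of all tested genes, 18.3% rose and 18% fell after median-ratio scaling, and 16.9% and 19.8% after quantile scaling. HTA4 was at 7.16, 5.49 and 10.04 FPKM over the WT libraries and 8.77, 10.6 and 8.41 over the double mutant ones. It was at 3.36, 2.59 and 2.76 FPKM with pnet2_a and 2.03, 3.22 and 2.97 with pnet2_b. All 6 triple mutant libraries were below all 6 libraries of WT and the double mutant. HTA4 fell by 1.39 on the log2 scale with pnet2_a (SE 0.181, adjusted p = 4.95e-05) and by 1.46 with pnet2_b (SE 0.181, adjusted p = 1.96e-05) against the double mutant, and by 1.10 (adjusted p = 0.00027) and 1.17 (adjusted p = 0.000111) against WT. These calls held in 12 of 12 fits with 1 library left out. The fall was not particular to HTA4 in its part of chromosome 4. Within 20 kb on either side, a window chosen after these values were seen, 7 of 12 tested genes fell with each mutation against the double mutant. HTA4 and MIR841a are among the 7. Of all tested genes, 9.2% fell with pnet2_a and 8.63% with pnet2_b. HTA4 lies at chr4:7884516-7885982 on the plus strand, where the microRNA gene MIR841a overlaps it on the opposite strand. The libraries were strand-specific, but the strand setting of the counting is not given in the sources used here, so whether reads of the pair were kept apart is not known.

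HTA11, in contrast, rose in both triple mutants against the double mutant. It was at 32.4, 31.8 and 37.1 FPKM for WT, 25.0, 27.0 and 24.4 for the double mutant, 30.02, 37.7 and 37.0 with pnet2_a and 39.7, 41.8 and 34.7 with pnet2_b. The 3 double mutant libraries were below all 9 others, and the triple mutants overlapped WT. HTA11 fell by 0.39 in the double mutant against WT (SE 0.0981, adjusted p = 0.0468), a call lost in 8 of 12 fits with 1 library left out, with an adjusted p of 0.0794 without WT replicate 1, 0.164 without WT replicate 3, and 0.121, 0.0569 and 0.149 without double mutant replicates 1, 2 and 3. The other losses were without pnet2_a replicate 2 (0.0545) or 3 (0.0597) or pnet2_b replicate 1 (0.0645). It rose against the double mutant by 0.43 with pnet2_a (SE 0.0981, adjusted p = 0.0038) and by 0.58 with pnet2_b (SE 0.0981, adjusted p = 0.000278), or 0.32 and 0.35 above the median of all genes. Both rises held in 12 of 12 fits with 1 library left out.

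HTA8 was at 10.1, 8.29 and 12.9 FPKM for WT, 7.82, 9.84 and 5.95 for the double mutant, 10.7, 11.7 and 9.15 with pnet2_a and 14.5, 13.8 and 14.3 with pnet2_b. The pnet2_b libraries were above all others. The change was 0.80 against the double mutant (SE 0.161, adjusted p = 0.00108), held with each library left out, and 0.43 against WT (adjusted p = 0.0405), lost in 6 of 12 such fits, without WT replicate 1 (0.0887) or 2 (0.175), pnet2_a replicate 1 (0.0512) or any pnet2_b library (0.0698 to 0.0911). The call against WT was also lost after median-ratio (0.20, adjusted p = 0.345) and quantile scaling (0.13, adjusted p = 0.553). It was lost as well without the intensity trend (0.0592) and with a replicate block in the fit (0.0563). HTA9, the most abundant H2A.Z gene, was at 88.8, 83.6 and 104 FPKM for WT, 80.1, 95.1 and 91.1 for the double mutant, 85.5, 89.9 and 89.3 with pnet2_a and 104, 106 and 97.9 with pnet2_b. Its change of 0.21 against the double mutant (SE 0.0826, adjusted p = 0.0459) was lost in 8 of 12 fits with 1 library left out (0.202 and 0.0606 without double mutant replicates 1 and 3, 0.106 and 0.126 without pnet2_b replicates 1 and 2, 0.0509 without WT replicate 1, and 0.0549 to 0.0579 without any pnet2_a library) and was -0.034 after median-ratio scaling.

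**Figure D4:**
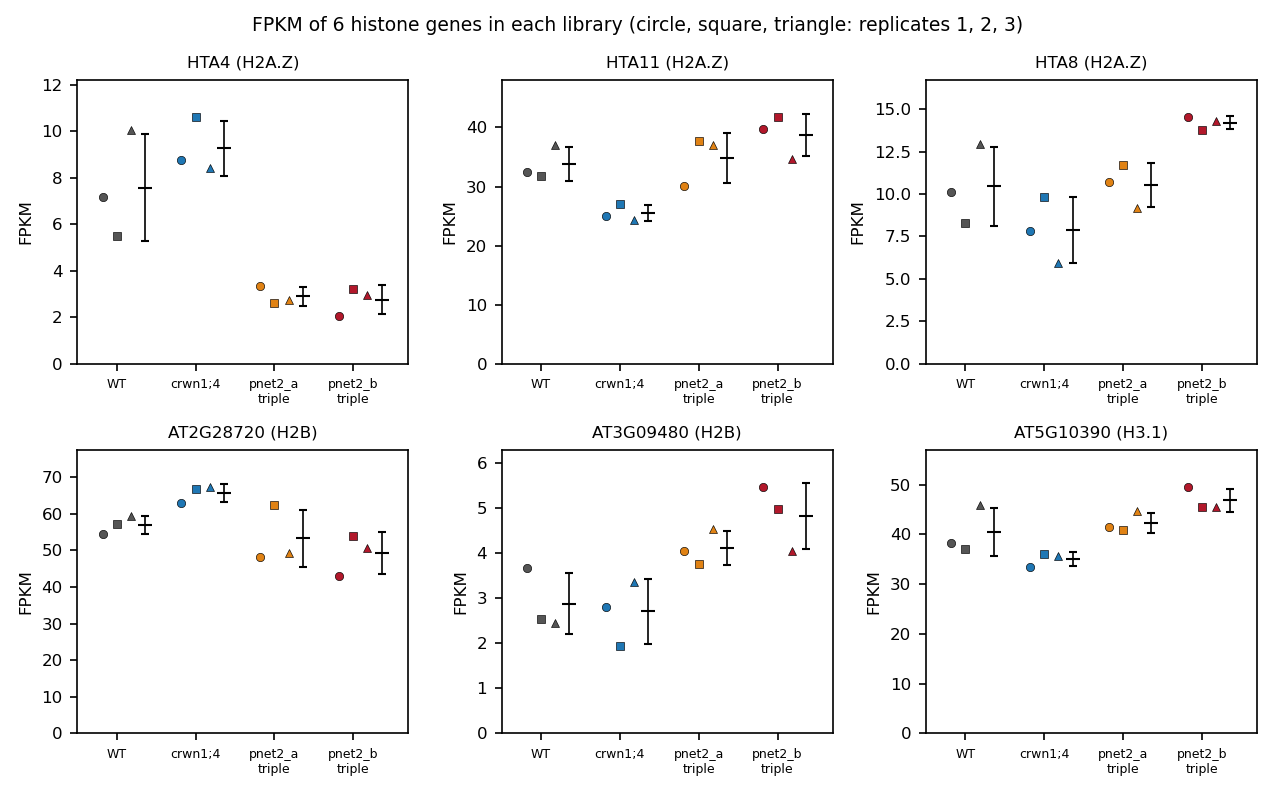
FPKM of HTA4, HTA11, HTA8, AT2G28720, AT3G09480 and AT5G10390 in each library (circle, square and triangle for replicates 1 to 3; bar, mean ± SD). HTA4 is at 2.03 to 3.36 FPKM in the 6 triple mutant libraries and 5.49 to 10.6 in the other 6, whereas HTA11 is lowest in the double mutant, at 24.4 to 27.0.

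Of the 3 H2A.W genes, HTA6 rose with pnet2_b against the double mutant as deposited, where 38.8% of all tested genes rose. It was at 104, 99.1 and 112 FPKM for WT, 94.2, 109 and 91.7 for the double mutant, 100.4, 103 and 98.9 with pnet2_a and 114, 132 and 110.6 with pnet2_b. The pnet2_b libraries were above those of the double mutant, by little for the lowest, and overlapped WT. The change was 0.27 (SE 0.0802, adjusted p = 0.0129), lost without double mutant replicate 1 (0.0502) or 3 (0.0551) or pnet2_b replicate 2 (0.0694), and 0.02 after median-ratio scaling. HTA7 had genotype means of 37.2 to 42.1 FPKM and HTA12 of 6.12 to 7.53, and neither passed in any comparison as deposited. As shares of all 13 H2A genes, the H2A classes are described without a test. Canonical H2A made up 37.3%, 36.4%, 37.0% and 36.1% in WT, the double mutant, pnet2_a and pnet2_b, H2A.X 17.95%, 17.98%, 18.9% and 18.7%, H2A.Z 21.6%, 21.9%, 21.3% and 22.2%, and H2A.W 23.2%, 23.8%, 22.8% and 22.9%.

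H2B genes moved in both directions. AT2G28720 was at 54.4, 57.2 and 59.3 FPKM for WT, 63.0, 66.8 and 67.4 for the double mutant, 48.3, 62.3 and 49.3 with pnet2_a and 43.0, 54.0 and 50.6 with pnet2_b. The double mutant libraries were above all others. It fell against the double mutant by 0.31 with pnet2_a (SE 0.098, adjusted p = 0.0277) and by 0.42 with pnet2_b (SE 0.098, adjusted p = 0.00327), under every scaling tried for pnet2_b. The pnet2_a call was lost without double mutant replicate 2 (0.072) or 3 (0.072), or pnet2_a replicate 1 (0.116) or 3 (0.109), while the pnet2_b call held in 12 of 12 such fits.

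AT3G09480, a low H2B gene, was at 3.66, 2.53 and 2.44 FPKM for WT, 2.81, 1.94 and 3.36 for the double mutant, 4.05, 3.76 and 4.52 with pnet2_a and 5.47, 4.97 and 4.03 with pnet2_b. All 6 triple mutant libraries were above the 6 others. It rose against the double mutant by 0.48 with pnet2_a (SE 0.167, adjusted p = 0.0403, lost without double mutant replicate 1 at 0.0699 or 2 at 0.172, or any pnet2_a library at 0.0569 to 0.126) and by 0.66 with pnet2_b (SE 0.167, adjusted p = 0.00495), and by 0.59 with pnet2_b against WT (adjusted p = 0.00939). AT3G53650 was at 7.59, 10.7 and 9.68 FPKM for WT, 5.35, 8.24 and 8.63 for the double mutant, 8.68, 9.20 and 7.90 with pnet2_a and 12.4, 11.97 and 10.6 with pnet2_b, and rose with pnet2_b against the double mutant by 0.61 (SE 0.152, adjusted p = 0.00453). Both pnet2_b rises against the double mutant held with each library left out and after median-ratio scaling, at 0.47 and 0.39, but were lost after quantile scaling. The AT3G09480 call against WT was lost after median-ratio (0.40, adjusted p = 0.0835) and quantile scaling (0.29, adjusted p = 0.206), as was its pnet2_a call, at 0.39 (adjusted p = 0.104) and 0.32 (adjusted p = 0.184).

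The other H2B genes that passed did so only against WT. HTB9, the H2B gene with the highest level, was at 184, 206 and 225 FPKM for WT, 173, 207 and 195 for the double mutant, 176, 187 and 199 with pnet2_a and 201, 225 and 210.1 with pnet2_b. It passed in no comparison, although its pnet2_b libraries were above those of pnet2_a. HTB1 fell with pnet2_a against WT by 0.25 (SE 0.0759, adjusted p = 0.0187), from a mean of 51.4 to 43.0 FPKM, lost without WT replicate 3 (0.0762) or pnet2_a replicate 2 (0.0765). AT2G37470 fell in the same comparison by 0.40 (SE 0.136, adjusted p = 0.0327), from 63.4 to 46.8 FPKM, lost in 4 of 12 fits with 1 library left out (0.137 without WT replicate 3, and 0.0574 to 0.084 without any pnet2_a library). HTB4 rose with pnet2_b against WT by 0.20 (SE 0.0711, adjusted p = 0.0325), from 119 to 136 FPKM, lost without WT replicate 1 (0.0966) or 2 (0.12) or pnet2_b replicate 1 (0.0588) or 2 (0.114), and its change was -0.042 after median-ratio scaling. AT1G08170 was listed at 0 in all 12 libraries and AT5G02570 at 0 to 1.69 FPKM, so neither was tested.

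Against WT the counts over all classes were small. With pnet2_a 1 member rose and 4 fell, where 25.4% of tested genes rose and 10.5% fell. With pnet2_b 7 rose and 1 fell, where 38.4% rose and 9.25% fell. In either direction 11.9% of members passed with pnet2_a and 19% with pnet2_b, against 35.9% and 47.7% of all tested genes. Libraries did not overlap for 3 members higher and 7 lower with pnet2_a (31.9% and 14.5% of all), and for 8 higher and 2 lower with pnet2_b (43.5% and 11.1%). After median-ratio scaling, in contrast, none rose in either comparison and 13 fell with pnet2_a and 17 with pnet2_b, where 16.3% and 18.9% of all tested genes fell and 18.8% and 20.2% rose. After quantile scaling 1 rose and 13 fell with pnet2_a, and 3 rose and 9 fell with pnet2_b, where 15.9% rose and 19.1% fell, and 18.1% rose and 22.6% fell. The pnet2_b count of 8 was 13 without WT replicate 3, 4 without WT replicate 2, and 5 without WT replicate 1 or pnet2_b replicate 1. In these 4 fits 45.3%, 44.8%, 41.7% and 43.5% of all tested genes were called, in this order. The pnet2_a count of 5 was 9 without WT replicate 2 and 3 without WT replicate 3 or pnet2_a replicate 2. There 33.8%, 32.1% and 30.6% of all were called.

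Between the 2 triple mutants limma called none of the 42 members, where 2.12% of tested genes rose and 0.754% fell with pnet2_b, 2.88% in all. At an unadjusted p below 0.05, 10 members were higher with pnet2_b and 0 lower, where 18.1% and 3.2% of all tested genes were. A fit on these 2 genotypes alone called 4 rises, where 3.77% of all tested genes rose. For 18 members the pnet2_b libraries were all above the pnet2_a libraries and for 0 all below, where 26.1% and 4.33% of tested genes were so. The members' median change was 0.14 and that of all genes 0.12.

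Of the 3 linker histone genes, AT1G06760 was at 145, 150 and 163 FPKM for WT, 136, 148 and 155 for the double mutant, 148, 166 and 168 with pnet2_a and 169, 176 and 163 with pnet2_b. The pnet2_b libraries were above those of the double mutant and of WT, by little for WT replicate 3 and pnet2_b replicate 3. It rose against the double mutant by 0.21 (SE 0.0694, adjusted p = 0.0220) in deposited FPKM, lost without double mutant replicate 1 (0.103) or pnet2_b replicate 1 (0.05) or 2 (0.0792), and the change was -0.038 after median-ratio scaling. AT2G30620 was at 74.7, 79.0 and 81.4 FPKM for WT, 76.1, 89.1 and 81.2 for the double mutant, 72.7, 82.3 and 81.2 with pnet2_a and 81.8, 79.7 and 79.1 with pnet2_b, with no separation of genotypes. HIS1-3, the drought-inducible linker histone, was at 0.880, 2.48 and 1.51 FPKM for WT, 2.68, 2.36 and 2.81 for the double mutant, 1.69, 1.53 and 1.33 with pnet2_a and 1.18, 2.69 and 1.36 with pnet2_b. Its double mutant libraries were above those of pnet2_a, and it passed in no comparison.

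Summed over all 44 genes, histone mRNA was 2983 ± 319.9 FPKM for WT, 2804 ± 143 for the double mutant, 2833 ± 122 with pnet2_a and 3143 ± 148 with pnet2_b (SD, n = 3). That was 0.457%, 0.432%, 0.447% and 0.503% of the summed FPKM of a library. The WT spread covers the means of the other genotypes. H2B gave the largest class sum, 745 ± 88.8, 702 ± 40.9, 667 ± 31.8 and 756 ± 43.1 FPKM, and H2A.X the smallest apart from CENH3, 119.7 ± 13.0, 108 ± 4.16, 121 ± 10.7 and 133 ± 2.75 FPKM.

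**Figure D5:**
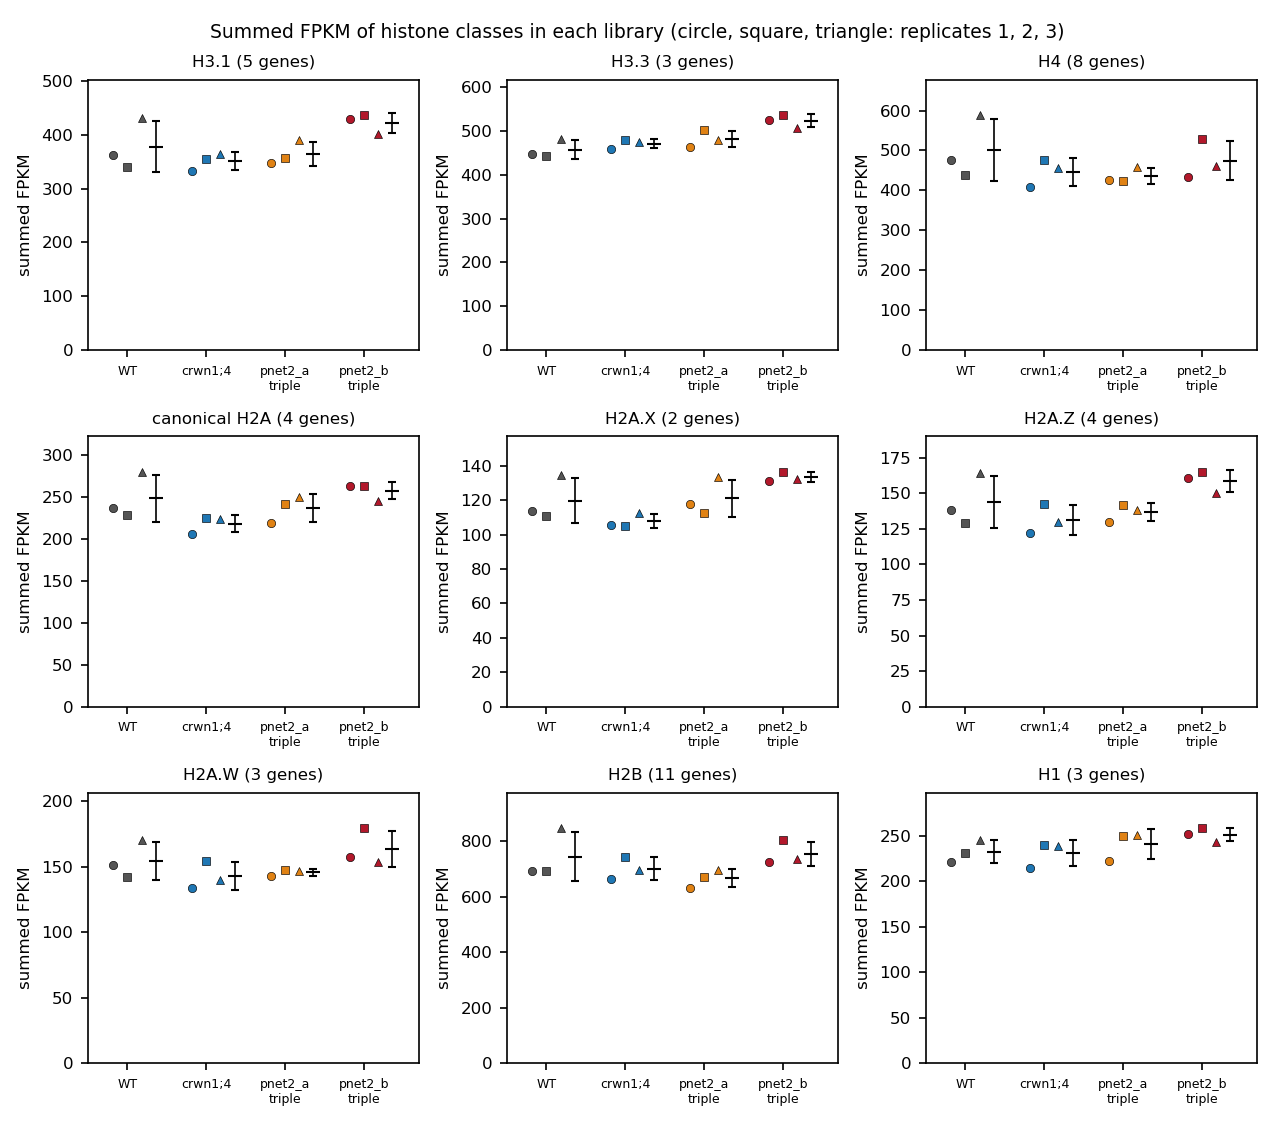
Summed FPKM of the genes of 9 histone classes in each library (circle, square and triangle for replicates 1 to 3; bar, mean ± SD). The H3.3 sum is 522 ± 14.8 with pnet2_b and 471 ± 11.1 in the double mutant, and the H4 sum overlaps between all 4 genotypes. These are sums as deposited, and the all-gene median is also higher with pnet2_b, by 0.23 on the log2 scale.

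Genes that act with histones were read from further lists. Of 16 histone chaperone and assembly genes, 7 rose with pnet2_a and 13 with pnet2_b against the double mutant, and 10 rose with pnet2_b after either median-ratio or quantile scaling. The shares of all tested genes that rose, beside which these and the following counts stand, are 22.9% with pnet2_a and 38.8% with pnet2_b as deposited, and 18.3% and 16.9% with pnet2_b after median-ratio and quantile scaling. NAP1;1, which carries H2A and H2B, changed by 0.32 and 0.58, NAP1;2 by 0.31 and 0.51, NRP1 by 0.31 and 0.65, and SPT16, a subunit of the FACT complex, by 0.31 and 0.55. The summed level of this list was 271 to 291 FPKM in WT, 267 to 279 in the double mutant, 323 to 343 with pnet2_a and 389 to 405 with pnet2_b, with no overlap between the triple mutants and the rest. Of 14 S-phase genes, 4 rose with pnet2_a and 10 with pnet2_b as deposited, but 2 with pnet2_b after either median-ratio or quantile scaling. TSO2, a small subunit of ribonucleotide reductase, was at 33.0 to 38.2 FPKM in the double mutant and 61.7 to 65.0 with pnet2_b, and changed by 0.57 and 0.81. The large subunit RNR1 changed by 0.28 and 0.60, and with pnet2_b the replicative helicase subunit MCM6 by 0.50 and the DNA polymerase gene ICU2 by 0.45. Of 4 E2F genes, E2FA rose by 0.49 with pnet2_b and none did with pnet2_a, and after median-ratio or quantile scaling none of the 4 rose with pnet2_b. None of 6 chromatin remodeler genes passed against the double mutant with either mutation in limma, and 0 did at an unadjusted p below 0.05. At that level 29.9% of all tested genes were higher and 12.3% lower with pnet2_a, and 44.2% and 10.2% with pnet2_b. Against WT 1 of the 6 rose with pnet2_b, where 38.4% of all tested genes rose. The median log2 change with pnet2_a and pnet2_b was 0.26 and 0.51 over the chaperone list, 0.19 and 0.35 over the S-phase list, 0.20 and 0.24 over the E2F list and -0.04 and 0.15 over the remodeler list, beside 0.11 and 0.23 over all tested genes.

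Markers of cell states were read beside these counts, and their part in the histone results was not tested. Of 8 mitotic genes, 2 rose with pnet2_a and 6 with pnet2_b against the double mutant as deposited, and 3 and 2 with pnet2_b after median-ratio and quantile scaling. KNOLLE, which builds the cell plate, changed by 0.54 and 0.79 and CYCB1;1 by 0.70 and 0.99. The mitotic list summed to 67.3 to 71.3 FPKM in WT, 54.0 to 62.5 in the double mutant, 67.7 to 79.6 with pnet2_a and 78.0 to 98.8 with pnet2_b, and the S-phase list to 144 to 159.7, 129 to 141, 164 to 181 and 196 to 200.9. All 5 mesophyll genes fell with both mutations as deposited and after median-ratio scaling, and 1 and 2 did after quantile scaling. Of all tested genes, 9.2% fell with pnet2_a and 8.63% with pnet2_b as deposited. After median-ratio scaling 14.5% and 18% of all fell, and after quantile scaling 16.1% and 19.8%. LHCB2.1, of the light-harvesting antenna, changed by -0.47 with pnet2_a and -0.89 with pnet2_b, and RBCS3B, of Rubisco, by -0.23 and -0.53. Their sum was 41053 to 42477 FPKM in WT, 39828 to 43018 in the double mutant, 33689.5 to 35796 with pnet2_a and 27837 to 29209 with pnet2_b. The triple mutants were below all other libraries. The median log2 change was 0.33 and 0.45 over the mitotic list and -0.29 and -0.53 over the mesophyll list. Between the double mutant and WT no gene of the chaperone, S-phase, E2F, mitotic or mesophyll lists passed in limma. At an unadjusted p below 0.05, 2 S-phase and 3 mitotic genes were lower in the double mutant, 2 E2F genes were higher, 1 chaperone gene was higher and 1 lower, and 1 mesophyll gene was lower, where 10.3% of all tested genes were higher and 7.02% lower.

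Among markers of other tissues, 1 of 3 meristem genes passed the filter, STM, a shoot meristem regulator. It rose by 1.01 with pnet2_b against the double mutant, while WUS and CLV3 were listed at 0. The meristem list summed to 2.62 to 3.15 FPKM in WT, 0.685 to 1.72 in the double mutant, 1.34 to 2.44 with pnet2_a and 2.28 to 4.09 with pnet2_b. The flower list summed to 2.36 to 5.303, 2.48 to 3.37, 0.905 to 1.68 and 0.874 to 2.79 FPKM, and AG, a floral organ identity gene, changed by -0.81 with pnet2_a. The root list summed to 8.81 to 10.2, 9.40 to 10.3, 14.5 to 17.2 and 13.3 to 14.1 FPKM, with the phosphate transporter gene PHT1;4 changing by 1.43 and 0.78. The pollen list was at 0 in WT and the double mutant and reached at most 0.459 with pnet2_a and 0.347 with pnet2_b, with MGH3 and DUO1 at 0. The seed list was at 0 apart from values up to 0.691 with pnet2_a, with CRC and OLEO1 at 0.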

How the data were processed

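Leaf mRNA was sequenced in 12 libraries, 3 for each of 4 genotypes, which were grouped by sample title. The authors deposited 1 FPKM value per gene and library. Per the submitters' processing notes, HISAT2 2.0.4 served as a tool and TAIR10 as the build, with no role stated. Which program counted fragments, with which annotation release and strand option, is not given in the sources. FPKM values below 0.8 were searched for fixed steps, and none were seen. The smallest value above 0 in a library was 0.293 to 0.336 FPKM, so steps at lower values could not have been seen. Read counts and depth were thus not recovered, and no counting interval is given. FPKM is relative to the library, so values of 1 gene depend on those of abundant genes.

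The members and lists were chosen with earlier results of these data known. Values were tested in R 4.3.3 with limma 3.58.1 (trend) on log2(FPKM + 1) in 1 fit over 12 libraries with 8 residual degrees of freedom, for 6 pairwise comparisons. Genes had to reach 1 FPKM in at least 3 of 12 libraries. The procedure was tested on simulated data in which a set of genes was raised in the double mutant alone. That setting has no shift in the median of all genes, so it cannot show how the calls behave in the triple mutants. Values in every library are given for the H3.1, H3.3, CENH3 and H1 genes and, in each other class, for the member with the highest mean and the one with the smallest adjusted p against the double mutant; other members shown in every library were added after their values were seen. Up to 4 genes of each further list are named by smallest adjusted p. Shares were computed from summed FPKM. Alternatives were other pseudocounts (0.1 and 5), no filter, a filter at 5 FPKM, TPM, median-ratio and quantile scaling, no trend, a fit on 2 genotypes, a replicate block and leaving out each library. All 44 loci matched the RefSeq TAIR10.1 annotation, which was used for positions, sequences and motif searches (Python 3.11.15); figures used matplotlib 3.10.9.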

Additional observations from a re-analysis of the deposited data

Results flagged for a closer look

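AT1G13370, an H3-like gene outside the 44 loci, was listed at 0 in all 6 libraries of WT and the double mutant and was above 0 in all 6 triple mutant libraries. Its values were 0.714, 0.547 and 0.926 FPKM with pnet2_a and 0.643, 1.09 and 0.741 with pnet2_b, so the triple mutants spanned 0.547 to 1.09. These lie near the smallest values above 0 of the libraries, 0.293 to 0.336 FPKM. A listed 0 may thus stand for a level below that floor. It did not pass the filter on low values and was not tested. The gene was picked by a rule that asked for this very split between the genotypes. The split is therefore how it was chosen and carries no weight as a result.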

How the results depend on the processing

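Of 38 calls of a member in a comparison, 8 held under all 22 alternatives: HTA4 in 4 comparisons, HTA11 with pnet2_a and pnet2_b against the double mutant, and HTA8 and AT2G28720 with pnet2_b against the double mutant. The other 30 were lost under at least 1. Median-ratio scaling reversed 6, at -0.038 for AT4G40040, -0.044 for HTA2, -0.034 for HTA9 and -0.038 for AT1G06760 (pnet2_b against the double mutant), and -0.024 for AT5G10390 and -0.042 for HTB4 (pnet2_b against WT). The cause was not tested. Median-ratio scaling shifts all genes of a library alike. The count for the double mutant against WT, 1 as deposited, was 0 with pseudocount 5, without the filter, without the trend, in the fit on 2 genotypes and with the replicate block, and 0 to 2 with 1 library left out (2 without WT replicate 2). The pnet2_a count against the double mutant was 6 and ranged from 2 to 9 with 1 library left out. For pnet2_b against the double mutant it was 18, 9 after median-ratio and 8 after quantile scaling, and 11 to 20 with 1 library left out. For pnet2_a against WT it was 5, 13 after median-ratio and 14 after quantile scaling, and 3 to 9. For pnet2_b against WT it was 8, 13 in TPM, 17 after median-ratio and 12 after quantile scaling, 5 without the trend, and 4 to 13. Between the triple mutants it was 0, 4 in the fit on 2 genotypes, and 0 to 2. The share of all tested genes called varied as well with 1 library left out. It was 1.58% to 3.62% for the double mutant against WT and 0.593% to 3.4% between the triple mutants. Against the double mutant it was 24.8% to 33.3% with pnet2_a and 39.5% to 48.7% with pnet2_b. Against WT it was 29.9% to 35.8% with pnet2_a and 41.1% to 47.5% with pnet2_b. Without the most abundant gene of each class the H3.1 share was 44.8% with pnet2_a, from 43.1%, and 45.5% with pnet2_b, from 44.7%; with 1 library left out it was 44.1% to 46.0% in WT, 42.3% to 43.0% in the double mutant, 42.2% to 43.9% with pnet2_a and 44.6% to 44.9% with pnet2_b. With a replicate block the counts were 0, 6, 17, 6, 9 and 0 in the order given; the 18 pairs of libraries with the same number correlated at -0.084 to 0.068 and the 36 with different numbers at -0.072 to 0.109, so the numbers were not taken as pairs. Low genes such as HTA4, AT3G09480, CENH3 and HIS1-3 rest on an unknown number of fragments.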

Other observations

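HTA4 lies near other genes that fell, in a window of 20 kb on either side chosen after the values of HTA4 were seen. Of 19 genes in the window, 12 were tested and 7 fell against the double mutant with both pnet2_a and pnet2_b, all between chr4:7879558 and chr4:7898499 in TAIR10.1. Each of these counts includes HTA4 itself and MIR841a, which overlaps it. Of all tested genes, 9.2% fell with pnet2_a and 8.63% with pnet2_b. The log2 changes with pnet2_a and pnet2_b were -0.94 and -0.93 for UNE15, -1.39 and -1.46 for HTA4, -1.53 and -1.51 for MIR841a, -1.16 and -1.11 for AT4G13572, -1.39 and -1.20 for AT4G06115, -1.76 and -1.58 for AT4G13575, and -1.90 and -2.04 for AT4G13577. AT4G13575 was at 24.4 to 38.4 FPKM in the 6 libraries of WT and the double mutant and at 7.91 to 9.27 in the 6 triple mutant libraries. SMAP1, AT4G13530, AT4G13550 and AT4G13590 did not pass against the double mutant, and AT4G13540 rose with pnet2_b by 0.80 (limma, adjusted p = 0.00344).

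Further H3 genes outside the 44 were low in these leaves. MGH3 and AT5G12910 were listed at 0 in all 12 libraries, and AT1G75600 at 0 in all but 2, where it was at 0.706 and 0.400 FPKM. HTR11, at 1.29 to 3.51 FPKM, was tested and passed in no comparison. With pnet2_b against WT it changed by 0.47 at an unadjusted p below 0.05 in limma, where 43.1% of all tested genes were higher. Its libraries did not overlap there, where 43.5% of all tested genes were higher without overlap.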
